A study of Mus musculus with 48 samples.

Results

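These data measure gene expression in the mouse pars tuberalis during an evening that was lit for the first time, against the same hours of darkness in short days. The arrays were chosen by their labels alone: those of the delay condition and of the short-day condition at ZT0, ZT4, ZT8, ZT12 and ZT16, which makes 20 of the 48 arrays of the series. ZT counts hours from lights-on, and 12 arrays of mice after 2 weeks of long days served as a further comparison. All mice were male CBA/N mice bought at 3 weeks of age, with no genetic change and no drug, and all were first kept for 3 weeks in short days of 8 h of light at 400 lux. Short-day mice stayed in that cycle, dark from ZT8, and were 8 weeks old by the labels. Delay mice were sampled on the first long day, when the dark period came 8 h later, so that by the labels their light lasted until ZT16, and they were 6 weeks old. Long-day mice had 16 h of light for 2 weeks and were 8 weeks old. Each array held a pool of tissue from 25 mice, punched from slices 0.5 mm thick, and the design text says that the procedure was repeated to give n = 2 arrays per condition and time point. Age, set of mice and lighting condition cannot be told apart between delay and short day, and a punch of this kind can hold neighbouring cells. In such bulk tissue, fewer cells of a type and less RNA per cell cannot be told apart.

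The pars tuberalis is the part of the pituitary that wraps its stalk, and its thyrotrophs carry melatonin receptors. Melatonin, secreted at night, reports the length of the dark period to these cells, and their thyrotropin signals back to the hypothalamus, where it controls thyroid hormone activation and so seasonal reproduction. The cells also run a circadian clock, in which ARNTL with CLOCK or NPAS2 switches on the Per and Cry genes, whose proteins then repress ARNTL and its partner. NR1D1, NR1D2 and the ROR factors form a second loop on Arntl, and DBP, TEF and HLF pass the rhythm on to other genes. CBA mice are among the laboratory strains that make melatonin.

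The question is what the lit evening changed beyond the level that the same condition already had by day. The evening difference is therefore the mean of ZT12 and ZT16 (4 arrays) minus the mean of ZT0, ZT4 and ZT8 (6 arrays) in delay, minus the same difference in short day. Values are log2 expression as deposited, errors of differences are SE, and a gene rose or fell in this text if its evening difference was above or below 0 with an adjusted p under 0.05 in a limma model of all genes.

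Before any result, the labels were checked against the clock. Each array's 22 clock genes were set against the mean short-day course, leaving out a short-day array from its own course. All 12 short-day arrays lay nearest to their own ZT, with distances (mean absolute log2 differences over these genes) of 0.132 to 0.191. All 10 delay arrays from ZT0 to ZT16 lay nearest to the short-day time point 4 h earlier, at distances of 0.137 to 0.262, against 0.264 to 0.463 to their own ZT. That includes the 6 delay arrays at ZT0, ZT4 and ZT8, hours at which both conditions were lit by the labels. With the 8 clock genes that did not pass in the evening comparison alone, 6 of the 10 delay arrays (60%) matched 4 h earlier. On this 4 h grid, and without a test, delay clock genes lay nearest an earlier short-day time before the extra light began. The cause was not tested, and results that turn on this match are also given against short-day arrays taken 4 h earlier. That second matching was chosen after seeing these clock genes.

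**Figure D1:**
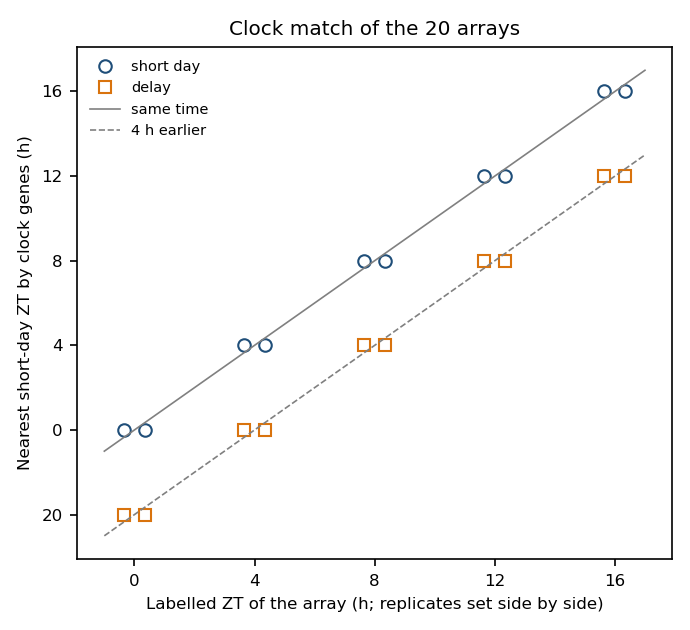
Nearest short-day ZT by the 22 clock genes (vertical axis, hours) against the labelled ZT of each array (horizontal axis, hours), with replicates set side by side. Blue circles are short-day arrays and orange squares delay arrays. The solid line marks the same time and the dashed line 4 h earlier. Short-day arrays lie at their own time, and all 10 delay arrays at the short-day time 4 h earlier.

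The tissue checks showed high Cga throughout and neighbouring tissue in places. Cga, the subunit that thyrotropin shares with the gonadotropins, lay between 13.21 and 14.13 on the 20 arrays. Since the subunit is shared, this alone does not show which pituitary cells were present. Prl, the prolactin of the pars distalis, was 11.06 on the first short-day array of ZT12 and 5.41 to 6.24 on the other short-day arrays from ZT0 to ZT16, and 7.25 to 10.25 on the delay arrays. The 3′ minus 5′ signal of the Gapdh control, a sign of RNA breakdown, was 2.20 to 2.51 by day and 2.02 to 2.37 in the evening in short day, and 1.84 to 2.04 and 1.81 to 2.10 in delay. The same signal of the actin control was 1.82 to 2.19 by day and 1.77 to 1.91 in the evening in short day, and 1.64 to 1.96 and 1.79 to 2.14 in delay. Its mean was thus lower in the evening in short day (1.85 against 1.94) and higher in delay (1.90 against 1.80), so that it moved with the evening comparison. With the actin signal as a covariate 86 of all genes passed in place of 1112, and with the Gapdh signal 837. Array medians ran from 6.98 to 7.03 over the 48 arrays.

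Clock genes made up the clearest named group. Of 22 measured genes in the clock lists 14 passed: 7 repressors and 4 output genes rose, and 1 repressor and 2 activators fell. Over all 18194 genes 6.11% passed, 5.16% upward and 0.951% downward. The median evening difference was 0.53 for the 11 repressors, 0.47 for the 6 output genes and -0.37 for the 5 activators, beside 0.06 for all genes. These lists were known to hold changed genes when they were drawn up.

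Promoter stretches of 6 of these genes are shown because their E-boxes and D-boxes are the letters that the clock's activators and its output factors are known to bind. They come from RefSeq (GRCm38.p6), 5′ to 3′ on the gene's strand, with the motif in capitals, and positions count back from the annotated start. The E-box is CACGTG, which reads the same on both strands, and the D-box is TTATGTAA, searched on both strands. The E-box was found in 6.02% and the D-box in 0.819% of 32851 windows of the 250 bases before a start, or in 6.86% and 0.977% of genes with a window. The motifs did not overlap each other. For Per1 and Tef the table holds more than 1 start, and the first is shown.
Ciart, chr3:95882257-95882354, minus strand, E-boxes at -116, -58 and -44: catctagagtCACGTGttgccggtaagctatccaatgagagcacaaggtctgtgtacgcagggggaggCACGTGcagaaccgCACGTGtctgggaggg
Per1, chr11:69098768-69098803, plus strand, E-box at -166: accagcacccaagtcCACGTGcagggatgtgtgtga
Tef, chr15:81802531-81802566, plus strand, E-box at -127: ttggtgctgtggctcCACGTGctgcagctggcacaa
Cry1, chr10:85185094-85185129, minus strand, E-box at -60: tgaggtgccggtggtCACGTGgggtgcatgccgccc
Per3, chr4:151044806-151044880, minus strand, D-boxes at -205 and -158: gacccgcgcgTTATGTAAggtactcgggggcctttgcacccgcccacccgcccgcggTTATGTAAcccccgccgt
Timeless, chr10:128237894-128237931, plus strand, D-box at -157: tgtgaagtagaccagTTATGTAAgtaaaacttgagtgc
Of the 22 clock genes, 20 had a window, and the E-box was in 5 of them, those of Bhlhe41, Ciart, Cry1, Per1 and Tef. Per3 and Timeless were the 2 with a D-box. Among these, Bhlhe41 did not pass, Cry1 fell and the other 5 rose.

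Among the repressors, Per2, a period gene of the negative limb, was 8.73 and 8.81 on the short-day arrays of ZT12 and 7.73 and 7.60 at ZT16, after daytime values of 7.65 to 9.05 (median 8.51). In delay it was 9.48 and 9.36 at ZT12 and 8.80 and 8.97 at ZT16, after daytime values of 7.53 to 8.86 (median 8.00). Both delay arrays were above both short-day arrays at each evening time. The evening difference was 1.14 ± 0.13 (adjusted p = 9.37e-06), a 2.21-fold rise, with 0.86 ± 0.17 at ZT12 alone and 1.42 ± 0.17 at ZT16 alone.

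Per1, its paralogue, was 9.56 and 9.45 at ZT12 and 8.96 and 8.83 at ZT16 in short day, against 10.13 and 10.21 and then 9.40 and 9.31 in delay. The groups did not overlap at either time, and the evening difference was 0.69 ± 0.16 (adjusted p = 0.0162). With the actin 3′ minus 5′ signal as a covariate its adjusted p was 0.0714. Per3, the third period gene, rose by 0.53 ± 0.12 (adjusted p = 0.0171; 0.0818 when only short-day and delay arrays entered the fit), from evening values of 9.91 to 10.56 in short day to 10.33 to 10.91 in delay, which overlap across the pair of times.

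Ciart, a repressor that acts on ARNTL and CLOCK, was 7.43 and 7.24 at ZT12 and 6.98 and 7.11 at ZT16 in short day. In delay it was 8.10 and 8.26, then 7.45 and 7.24, so it stood above short day at both times. Its evening difference was 1.06 ± 0.19 (adjusted p = 0.00296).

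Timeless, whose protein is best known from DNA replication and its checkpoint and which has been linked to the mammalian clock, separated most at ZT16. Short-day arrays were 10.94 and 10.57 at ZT12 and 9.14 and 8.93 at ZT16, while delay arrays were 11.61 and 11.36, then 11.28 and 11.44. The short-day level dropped between these times and the delay level did not. The evening difference was 1.06 ± 0.16 (adjusted p = 0.000488), of which the ZT16 part was 1.86 ± 0.21 and the ZT12 part 0.26 ± 0.21 (adjusted p = 0.486). Another probe set of the gene gave 1.08.

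Nr1d2, which represses Arntl, rose by 0.61 ± 0.12 (adjusted p = 0.00703) and Bhlhe40, a repressor induced by many stimuli, by 0.43 ± 0.08 (adjusted p = 0.00616). Cry1, a cryptochrome that peaks late in the cycle, went the other way. It was 7.53 and 7.86, then 8.34 and 8.26 in short day and 7.55 and 7.54, then 7.93 and 7.70 in delay, overlapping at ZT12 and not at ZT16. Its evening difference was -0.41 ± 0.12 (adjusted p = 0.0434), and the call was lost when any of 12 of the 20 arrays was left out. Nr1d1 at 0.34 (adjusted p = 0.0722), Cry2 at 0.06 and Bhlhe41 at 0.00 did not pass.

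The output genes Dbp, Tef, Usp2 and Noct rose. Dbp, a transcription factor that binds D-boxes, was 10.85 to 11.13 on the 4 short-day evening arrays, against 12.15 and 12.34 at ZT12 and then 11.27 and 11.10 at ZT16 in delay. The conditions were apart at ZT12 and overlapped at ZT16. Its evening difference was 1.12 ± 0.22 (adjusted p = 0.00616), and ZT12 alone gave 1.64 ± 0.27 against 0.61 ± 0.27 at ZT16 (adjusted p = 0.216).

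Usp2, a ubiquitin protease with a daily rhythm, rose by 0.52 ± 0.09 (adjusted p = 0.00322), Tef, which works with DBP, by 0.47 ± 0.10 (adjusted p = 0.0129) and Noct, a clock-controlled gene also known as nocturnin, by 0.46 ± 0.10 (adjusted p = 0.0162). With the probe set of largest variance Tef was at 0.11 (adjusted p = 0.905), and with the actin covariate Noct had an adjusted p of 0.0677. Hlf at 0.32 (adjusted p = 0.0784) and Nfil3, the repressor that competes for D-boxes, at -0.38 (adjusted p = 0.122) did not pass.

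The activators Arntl and Npas2 fell. Arntl was 8.98 and 8.86 at ZT12 and 9.53 and 9.55 at ZT16 in short day, and 8.70 and 8.69, then 9.09 and 9.16 in delay, lower on both arrays at both times. The evening difference was -0.70 ± 0.14 (adjusted p = 0.00682). Npas2, a partner that can stand in for CLOCK, differed by -0.72 ± 0.12 (adjusted p = 0.00118), but its evening values overlapped (5.70 to 6.17 in short day, 5.55 to 5.96 in delay), and much of its difference lay in a higher daytime level in delay (0.56 ± 0.07). Another Npas2 probe set of similar level (mean 5.73 against 5.96, both dim) gave an evening difference of -0.04 and a daytime one of -0.06. Clock at -0.17, Rorb at -0.37 and Rora at 0.14 did not pass.

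**Figure D2:**
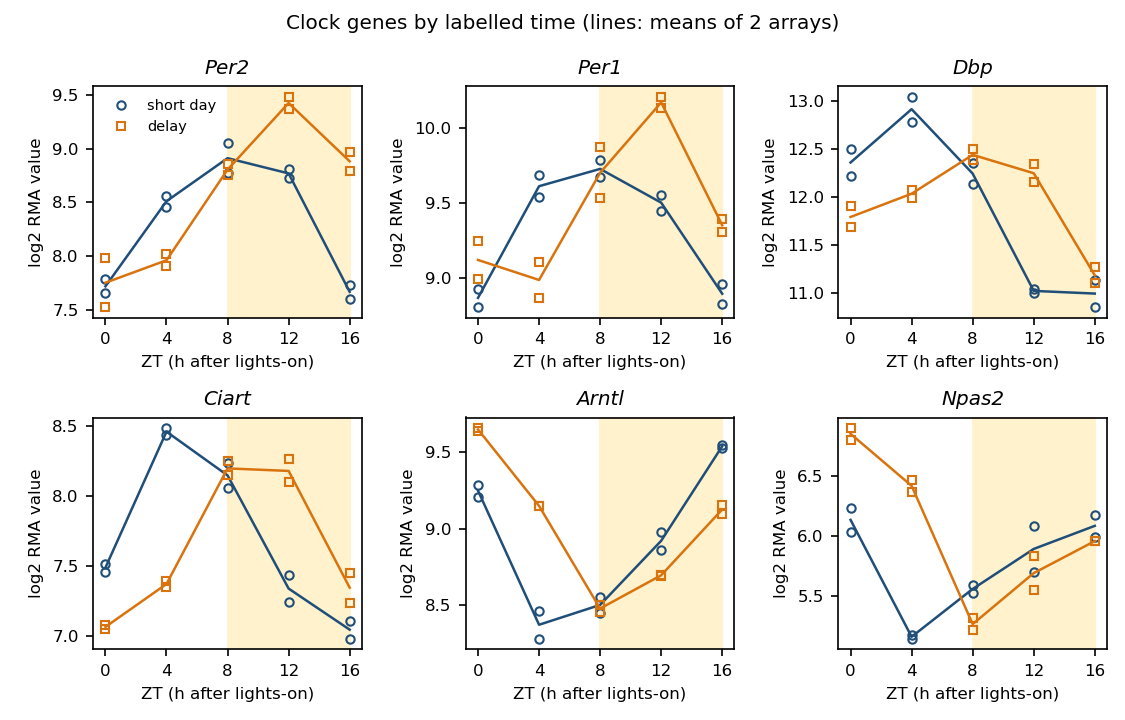
Log2 expression of 6 clock genes (vertical axes) against ZT in hours (horizontal axes); blue circles are short-day arrays, orange squares delay arrays, lines the means of 2 arrays, and the shaded hours from ZT8 to ZT16 are lit in delay and dark in short day by the labels. Per2 is higher in delay at ZT12 and ZT16, and Arntl is lower.

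Against short-day arrays taken 4 h earlier, none of the 22 clock genes passed. Per2 was then at -0.01, Per1 at 0.06, Per3 at -0.10, Ciart at 0.21, Dbp at 0.30, Arntl at 0.22 and Npas2 at -0.03. The shift was itself read from clock genes, so their small differences at that matching follow from how it was chosen.

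Outside the clock lists, Tspan4, a tetraspanin of cell membranes, had the smallest adjusted p among rises. It was 8.47 and 8.25 at ZT12 and 8.06 and 8.21 at ZT16 in short day, after 8.44 to 9.53 by day. In delay it was 9.04 and 8.97, then 8.36 and 8.33, after 7.84 to 8.83 by day, so the conditions were apart at both evening times. The evening difference was 1.08 ± 0.13 (adjusted p = 1.67e-05), and against short day 4 h earlier it was 0.44 ± 0.13 (adjusted p = 0.0487).

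Cables1, an adaptor of cyclin-dependent kinases, was 9.80 and 9.72, then 9.05 and 9.13 in the short-day evening and 9.94 and 9.64, then 9.31 and 9.22 in the delay evening. These evening levels overlap at ZT12, and the delay values by day were low, 8.52 to 9.07 against 9.06 to 10.09. Its difference of 0.88 ± 0.12 (adjusted p = 0.000124) thus came from an evening level 0.76 above daytime in delay, against -0.12 in short day, and brought delay to the short-day level.

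Genes of the glucocorticoid list, which holds the receptors and genes that corticosteroids are known to induce, had 7 rises and 0 falls among 28 measured, where 5.16% of all genes rose. Their median was 0.23 against 0.06 for all genes, and 11 of the 28 had an unadjusted p under 0.05, beside 4884 of all 18194 genes. Fkbp5, a co-chaperone that dampens the glucocorticoid receptor, was 10.07 and 9.87 at ZT12 and 9.64 and 9.66 at ZT16 in short day. In delay it was 10.58 and 10.37, then 10.18 and 9.88, above all 6 of its own daytime arrays (9.32 to 9.86) and above short day at both times. The evening difference was 0.75 ± 0.13 (adjusted p = 0.00216) and stayed past the threshold without any 1 array, with an adjusted p of at most 0.0164. Other probe sets of the gene gave -0.01 (mean level 7.15) and 0.05 (mean level 3.66), where the one used had a mean of 9.79.

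Fam107a, an actin-binding stress response gene, was 12.50 to 12.58 on the 4 delay evening arrays after 11.83 to 12.18 by day, and 12.35 to 12.53 in the short-day evening after 12.08 to 12.72. Its difference was 0.44 ± 0.08 (adjusted p = 0.00258; 0.0998 with the probe set of largest variance). It passed against short day 4 h earlier too (0.26 ± 0.08, adjusted p = 0.0441), the only gene of this list that did.

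Zbtb16, a zinc finger repressor, was 8.94 and 9.06, then 8.39 and 8.13 in short day and 9.56 and 9.59, then 9.05 and 8.79 in delay, apart at both times. Its difference of 0.73 ± 0.22 (adjusted p = 0.0461) lost the call without any of 13 of the 20 arrays, and its other probe sets gave 0.96 and -0.05. The other rises were Cebpd, a transcription factor of the acute phase (0.63 ± 0.18, adjusted p = 0.0359), Mt1, a metallothionein (0.56 ± 0.14, adjusted p = 0.0268), Klf9, a Krüppel-like factor (0.41 ± 0.12, adjusted p = 0.0406), and Nr3c2, the mineralocorticoid receptor (0.28 ± 0.08, adjusted p = 0.0334). Each of these 4 lost the call when any of 8 to 13 arrays was left out. The glucocorticoid receptor gene Nr3c1 (0.15), Tsc22d3 (0.23) and Sgk1 (0.20) did not pass. Corticosterone was not measured here.

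Other named rises were less even. Sec14l3, a lipid transfer protein, was 9.11 and 9.40, then 8.09 and 7.99 in short day and 9.52 and 9.21, then 9.18 and 9.91 in delay, overlapping at ZT12 and apart at ZT16. Its difference was 0.97 ± 0.25 (adjusted p = 0.0289), and its other probe sets gave 1.04 and 0.07. Cbr2, a carbonyl reductase, differed by 0.95 ± 0.28 (adjusted p = 0.0419), and these calls were lost without any of 7 and of 14 arrays. Both genes were also uneven between the delay arrays of ZT0, at 9.31 and 7.98 for Sec14l3 and 8.91 and 7.42 for Cbr2. Cfap43, a protein of the axoneme of cilia, rose by 0.69 ± 0.13 (adjusted p = 0.00616). Its other probe sets gave 0.02 and -0.27, at mean levels of 7.12 and 5.31 against 7.89 for the one used. None of the 7 ependymal markers passed. Their median was 0.34, and 5 of them had an unadjusted p under 0.05, beside 4884 of all 18194 genes. The part of ependymal cells in these rises was not tested.

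For Mettl22, a methyltransferase, and Scaf1, an SR-related splicing protein, the difference lay in short day. For Mettl22 evening minus daytime was 0.01 in delay and -0.71 in short day, and for Scaf1 0.01 and -0.69. Scaf1 arrays in delay stayed at 6.53 to 7.12 throughout, below all 10 short-day arrays (7.27 to 8.41), so that without the daytime level its evening value was lower in delay by 0.57.

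**Figure D3:**
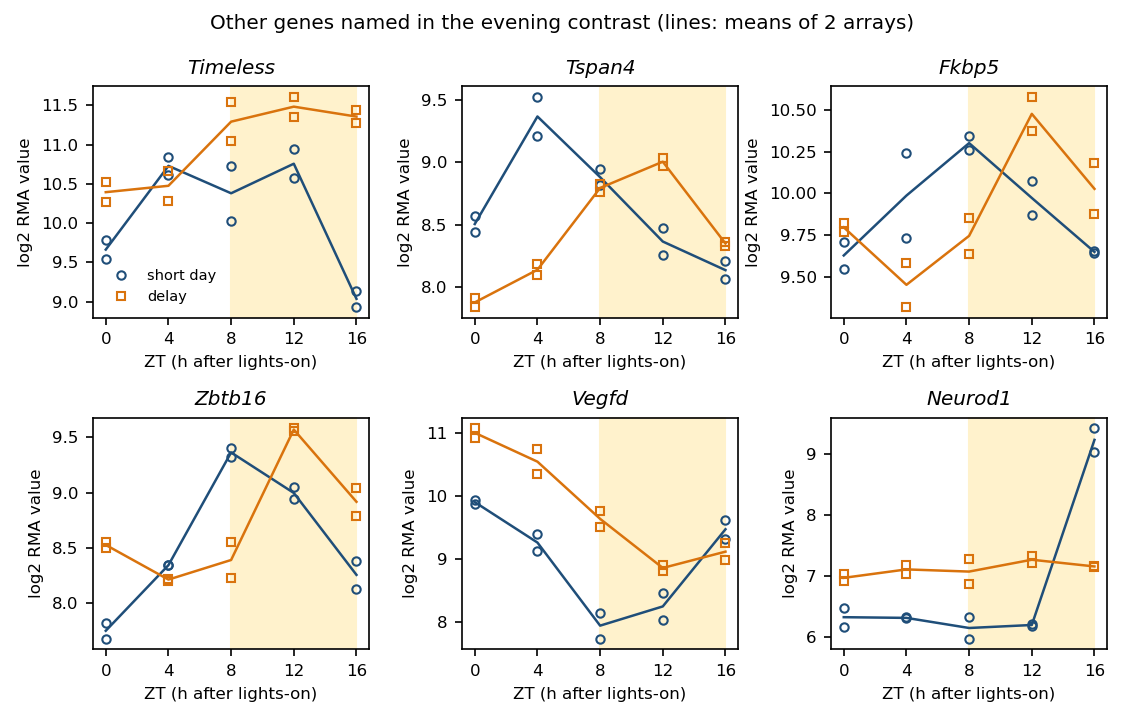
Log2 expression of Timeless, Tspan4, Fkbp5, Zbtb16, Vegfd and Neurod1 (vertical axes) against ZT in hours (horizontal axes), with the same symbols and shading as for the clock genes. Fkbp5 is above short day at ZT12 and ZT16 in delay, and Neurod1 is high on the short-day arrays of ZT16.

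Among the falls, Vegfd, a growth factor for lymphatic and blood vessels, had the smallest adjusted p of those with the same sign at both times. By day it was 9.51 to 11.07 in delay and 7.73 to 9.93 in short day. At ZT12 it was 8.81 and 8.90 in delay against 8.45 and 8.03, and at ZT16 8.98 and 9.24 against 9.31 and 9.62. Delay arrays were thus above short day at ZT12 and below it at ZT16, and the evening difference of -1.23 ± 0.16 (adjusted p = 3.74e-05) rested on the high daytime level in delay (1.36 ± 0.10 above short day). Without the daytime level the difference was 0.13 (adjusted p = 0.531), and against short day 4 h earlier 0.24 (adjusted p = 0.360). Other probe sets of the gene gave -1.17 and -1.15. Of 15 measured angiogenesis genes it was the only one to pass (median 0.06), and Vegfa was at -0.19 (adjusted p = 0.420).

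A run of genes that interferons are known to induce filled 7 of the 15 places among the largest falls. They were Rtp4 (-1.33 ± 0.37, adjusted p = 0.0330), Oasl2 (-1.17), Ifi44l (-1.14), Ifi27l2a (-1.01), Ifi202b, Ifi47 (-0.97) and Gbp3 (-0.89). They belong to no list drawn up for this comparison and were grouped after their values were seen. Rtp4, a chaperone of receptors, was 10.94 and 8.99 at ZT12 and 10.92 and 10.29 at ZT16 in short day, and 10.10 and 10.38, then 9.64 and 9.78 in delay. The replicates of short-day ZT12 were further apart than the conditions there, and in delay the highest values, 10.82 to 11.06, fell on 3 arrays of ZT4 and ZT8. The first short-day array of ZT12, high for Rtp4 and Oasl2 (9.40 against 7.59), was also the one with high Prl. Without that array Rtp4 was at -0.84 (adjusted p = 0.117) and Oasl2 at -0.72 (adjusted p = 0.158), and none of the 7 passed. The call of each of these 7 was lost without any of 4 to 13 of the 20 arrays.

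Fgd3 was 6.87 and 7.38, then 8.18 and 7.83 in short day and 7.22 and 7.15, then 7.39 and 7.58 in delay. It overlapped at ZT12 and was lower in delay at ZT16, with an evening difference of -0.88 ± 0.14 (adjusted p = 0.00125). Cacng7, a partner of AMPA-type glutamate receptors, was 11.64 and 11.81 at ZT12 in short day and 11.67 and 11.80 in delay, and differed instead by day (10.87 to 11.61 against 11.89 to 12.22). Its evening difference was -0.76 ± 0.15 (adjusted p = 0.00616), and it was still past the threshold against short day 4 h earlier (-0.72, adjusted p = 0.0166). That was also so for Armc8 (-0.82, adjusted p = 0.0249), Kcnh3, a potassium channel subunit (-0.79, adjusted p = 0.0235), and Ang2, a member of the angiogenin ribonucleases (-0.71, adjusted p = 0.0479). The evening calls of Armc8 and Kcnh3 were lost without any of 8 arrays and that of Ang2 without any of 4. The other 4 probe sets of Armc8 gave evening differences of 0.03 to 0.16, those of Kcnh3 0.03, -0.12 and -0.44, and the 1 of Cacng7, which was dim at a mean of 5.64, -0.12.

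A separate feature was the short-day array pair of ZT16. Neurod1, a basic helix-loop-helix factor of neurons and endocrine cells, was 9.42 and 9.03 there and 5.97 to 6.48 on the other short-day arrays, those of ZT20 included, and 6.86 to 7.32 on the 10 delay arrays from ZT0 to ZT16, with 6.87 and 7.19 at delay ZT20. Klhl41, a kelch protein known from muscle, was 7.45 and 7.49 there and 5.42 to 6.14 on the short-day arrays from ZT0 to ZT12, with 6.43 and 6.57 at ZT20, and 5.58 to 6.32 in delay, with 6.10 and 5.87 at ZT20. No delay array of the 6 time points reached the short-day level of ZT16 in either gene. The evening differences at ZT16 alone were -2.86 ± 0.20 (adjusted p = 2.60e-11) and -1.85 ± 0.18 (adjusted p = 4.12e-08). Against short day 4 h earlier, over both evening times, Neurod1 was at 0.30 (adjusted p = 0.250) and Klhl41 at 0.17 (adjusted p = 0.468). By the clock genes no delay array lay nearest to short-day ZT16, and both delay arrays of ZT20 lay nearest to ZT12. Whether delay mice passed this level between the sampled times was not tested.

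Whether ZT16 differed from ZT12 was tested as the change between these times in delay minus that in short day. By this test 6 genes passed (0.033% of all genes), 0.0165% in each direction, and 1432 had an unadjusted p under 0.05. They were Neurod1 (-3.14 ± 0.25), Klhl41 (-1.87 ± 0.22), Lonrf1, a protein with a LON domain (-0.87 ± 0.12), Timeless (1.60 ± 0.25), Hspa1b, an inducible heat shock protein (1.52 ± 0.26, adjusted p = 0.005), and Ahsa2, a co-chaperone related to the HSP90 activator AHSA1 (0.76 ± 0.13). Hspa1b was 10.67 and 10.94, then 9.92 and 9.95 in short day, and 10.40 and 10.13, then 10.87 and 10.97 in delay. Its high values came at ZT12 in short day and at ZT16 in delay. The call of Hspa1b was lost without the second short-day or the second delay array of ZT12, and that of Ahsa2 without the latter. With the probe set of largest variance Timeless (adjusted p = 0.170) and Hspa1b (adjusted p = 0.128) did not pass. Without the first short-day array of ZT16, 482 genes passed this test. The count was 20 without the first short-day array of ZT12, and 15 and 13 without the first and second delay array of ZT16. Taken alone, ZT12 had 1.07% of all genes past the threshold (0.94% upward, 0.126% downward) and ZT16 0.786% (0.561% and 0.225%).

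Of 11 thyrotropin and photoperiod genes measured, Tef alone rose and none fell, where 5.16% of all genes rose. Their median was -0.10, and 3 of the 11 had an unadjusted p under 0.05, beside 4884 of all 18194 genes. Tshb, the beta subunit that makes thyrotropin specific, was 11.20 and 10.02 at ZT12 and 10.18 and 10.53 at ZT16 in short day, and 12.45 and 11.99, then 11.37 and 11.68 in delay. Delay arrays were above all short-day arrays of the same time at both times, but they already were by day: the daytime offset was 1.58 ± 0.22 (adjusted p = 8.61e-07). The evening difference was -0.20 ± 0.35 (adjusted p = 0.752).

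Eya3, a co-activator of Tshb, was at 0.17 ± 0.17 (adjusted p = 0.541), Dio2, which turns thyroxine into its active form, at 0.16 ± 0.13 (adjusted p = 0.429), and Cga at 0.11 ± 0.13 (adjusted p = 0.611). Eya3 was 9.29 to 9.40 on the 4 delay evening arrays and 9.01 to 9.43 on those of short day, which overlap. Against short day 4 h earlier Cga passed (0.48 ± 0.13, adjusted p = 0.0330). Dio2 had its highest values at ZT12 in both conditions, 13.28 and 12.97 in short day and 13.27 and 12.95 in delay.

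Mtnr1a, the melatonin receptor of the thyrotrophs, had a short-day peak at ZT12 of 9.63 and 9.07, above its other short-day arrays (8.56 at most), while delay arrays were 8.48 and 8.10 at that time and 7.94 to 8.81 throughout. At ZT12 alone its difference was -1.94 ± 0.46 (adjusted p = 0.0378), a call lost without any of 11 of the 20 arrays, without a variance trend and with the probe set of largest variance. Over both times it was -0.91 ± 0.36 (adjusted p = 0.109). Tshr, the thyrotropin receptor, was lower in delay at ZT16 alone (-0.61 ± 0.12, adjusted p = 0.0131), where short-day arrays were 9.14 and 9.26 against 8.72 and 8.74. This call was lost without any of 3 of those 4 arrays, and over both times Tshr did not pass (-0.25, adjusted p = 0.102). Another Tshr probe set of similar level (mean 8.50 against 8.79) gave -0.76 over both times, and a dim one (mean 4.18) -0.25. By day, delay minus short day was -0.77 for the former and 0.14 for the one used.

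Among 25 melatonin and cAMP signalling genes only Rgs2, a brake on G protein signals, rose (0.34 ± 0.07, adjusted p = 0.0102), from 12.87 to 12.96 by day to 13.14 to 13.26 in the evening in delay, with 13.09 to 13.35 in short day throughout. Its delay evening level lay within the short-day range. Crem, a cAMP-responsive regulator, was at -0.14 ± 0.14 and Pde10a, a phosphodiesterase, at 0.13 ± 0.16, and neither passed.

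**Figure D4:**
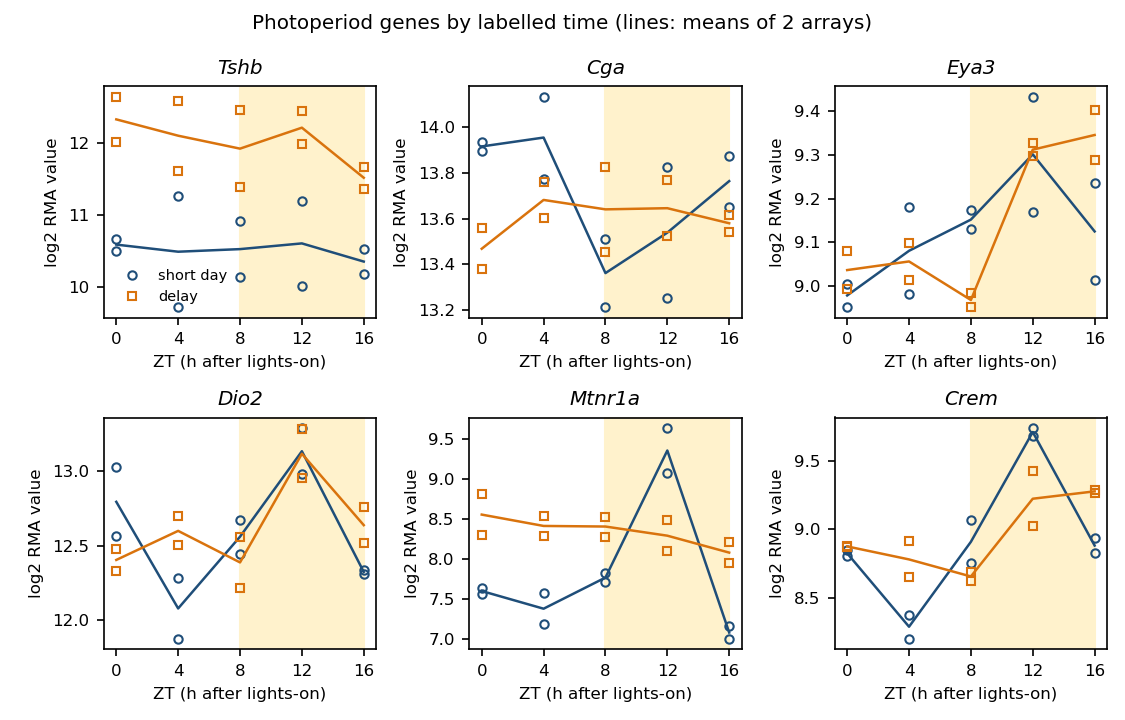
Log2 expression of Tshb, Cga, Eya3, Dio2, Mtnr1a and Crem (vertical axes) against ZT in hours (horizontal axes), with the same symbols and shading as for the clock genes. Tshb is higher in delay at every time including the daytime, and Mtnr1a peaks at ZT12 in short day alone.

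In the remaining lists the counts stand beside 5.16% of all genes that rose and 0.951% that fell. Of all 18194 genes 4884 had an unadjusted p under 0.05. In limma's test none of 28 immediate early genes passed (4 with an unadjusted p under 0.05, median 0.02), with Fos at 0.03 ± 0.38 and Egr1 at 0.30 ± 0.18. Likewise none of 13 heat shock and cold inducible genes passed (1 unadjusted, median 0.08) and none of 12 cholesterol synthesis genes (0 unadjusted, median 0.00). Of 25 endoplasmic reticulum folding genes 2 rose (median 0.08): Herpud1, part of the machinery that degrades misfolded proteins (0.52 ± 0.10, adjusted p = 0.00484), and Xbp1, a transcription factor of the unfolded protein response (0.23 ± 0.07, adjusted p = 0.0472), a call lost without any of 15 of the 20 arrays. Of 12 secretory granule genes Scg3 (0.30) and Scg5 (0.32) rose, calls lost without any of 14 and of 8 arrays, and of 11 thyroid hormone handling genes Klf9, also counted above, was the only one.

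Markers of neighbouring cells were followed for the same comparison, where 5.16% of all genes rose and 0.951% fell. Of 15 hypothalamic neuron markers Sst (0.63 ± 0.16) and Slc32a1 (0.54 ± 0.15) rose, and of 9 astrocyte markers Slc1a3 (0.25 ± 0.08), while none of the 8 pars distalis, 8 tanycyte, 8 oligodendrocyte, 10 microglial, 8 endothelial, 10 meningeal or 7 choroid plexus markers passed. Below the threshold, the oligodendrocyte markers had a median of 0.28 with 5 of 8 at an unadjusted p under 0.05, the astrocyte markers 0.19 with 5 of 9 and the neuron markers 0.28 with 4 of 15, beside the 0.23 with 11 of 28 of the glucocorticoid list. Of all 18194 genes 4884 had an unadjusted p under 0.05. By day 9 of the 15 neuron markers and 6 of the 9 astrocyte markers were lower in delay and 6 of the 10 meningeal markers were higher, with medians of -0.47, -0.37 and 0.26. Of all genes, 26.9% were lower and 18.7% higher in delay by day. Sst and Slc32a1 were lower in delay on the evening arrays too (Slc32a1 by 0.35 without the daytime level, adjusted p = 0.0331), so their rise is a smaller gap. The part of such differences in tissue in the calls was not tested.

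The daytime level that enters every evening difference was itself far apart between the conditions. At ZT0, ZT4 and ZT8, 45.6% of all genes passed between delay and short day, 18.7% higher and 26.9% lower in delay. With short day taken 4 h earlier it was 46.7%, 18.3% higher and 28.5% lower. Prl was 2.92 ± 0.83 higher and Lncpint, a long noncoding RNA, 1.52 lower in delay. Of the 939 genes that rose in the evening difference, 768 were lower in delay by day and 11 higher, and for 673 the larger part of the difference was a lower evening level within short day. For 266 a higher evening level within delay was the larger part, as for Per2, Fkbp5, Zbtb16 and Cables1. With no daytime level 18.6% of all genes passed, 12.4% higher and 6.24% lower in delay, and 192 of the 939 were still higher in delay past the threshold and 76 were lower. Of the 173 that fell, 146 were higher in delay by day and 0 lower, and 25 were still lower and 2 higher with no daytime level.

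**Figure D5:**
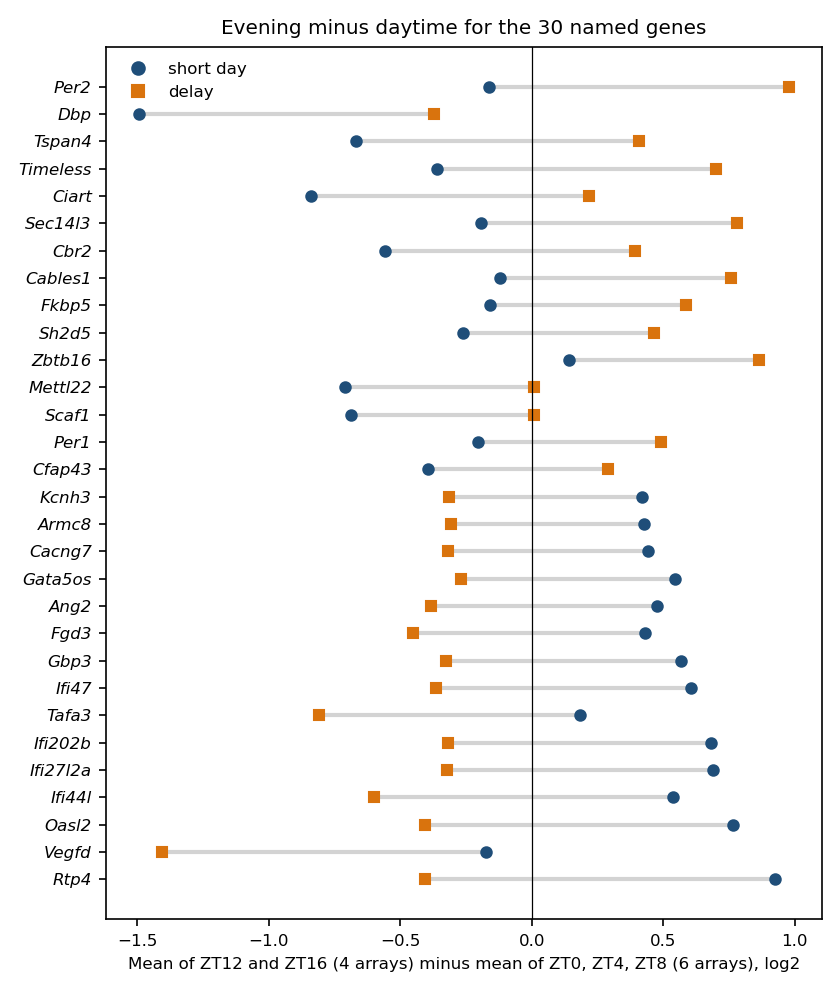
Mean log2 level of ZT12 and ZT16 minus that of ZT0, ZT4 and ZT8 (horizontal axis) for the 15 named rises and 15 named falls (vertical axis). Genes are ordered by evening difference, with blue circles for short day and orange squares for delay. Per2 and Fkbp5 are high in delay with a small change in short day, while Scaf1 and Mettl22 are near 0 in delay and below -0.6 in short day.

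Sizes were mostly small and the count of calls was unstable. Of the 939 rises 43 were at least 1.5-fold and 5 at least 2-fold, and of the 173 falls 28 and 7. All 939 rises and 170 of the 173 falls had the same sign at ZT12 and ZT16 taken alone. Against short day 4 h earlier 5.0% of all genes passed, 4.49% upward and 0.511% downward, and 368 of the 939 rises and 49 of the 173 falls were among them. In all 1112 genes passed and 4884 had an unadjusted p under 0.05. For short day, the count without 1 array was 1831 and 184 (the first and second array of ZT0), 139 and 2632 (ZT4), 187 and 2090 (ZT8) and 539 (the first of ZT12). For delay it was 1800 and 288 (ZT0), 716 (the second of ZT4), 326 (the second of ZT8), 198 and 565 (ZT12) and 194 (the first of ZT16), and the remaining 6 arrays moved it by less than 1.5 times. Of the 56 named genes that passed, markers of other cells aside, 28 did so without any 1 of the 20 arrays, among them Per2, Per1, Per3, Timeless, Ciart, Dbp, Arntl, Npas2, Tspan4, Cables1, Fkbp5, Fam107a, Vegfd, Fgd3, Cacng7 and Neurod1.

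The choice of daytime level also decided which genes passed. Against ZT8 alone, the last daytime point, 60 genes passed (0.33% of all genes, 0.275% upward and 0.055% downward). Per2 was then at 1.04 (adjusted p = 0.00226), Cables1 at 1.03 and Noct at 0.90, all past the threshold. In the glucocorticoid list, Zbtb16 at 1.59 (adjusted p = 0.00589), Fkbp5 at 0.99 (adjusted p = 0.00265) and Fam107a at 0.84 (adjusted p = 3.41e-05) had larger values than against the whole daytime. Vegfd at -1.57, Neurod1 at -1.43 and Klhl41 at -0.997 passed as well. Dbp at 0.51, Ciart at 0.52, Timeless at 0.61, Per1 at 0.59, Tspan4 at 0.51 and Arntl at -0.30 kept their sign and did not pass, while Npas2 at 0.13, Cry1 at 0.09 and Bhlhe40 at -0.06 turned their sign. This baseline has 4 arrays in place of 12.

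The last comparison set the evening of the first long day beside that after 2 weeks of long days, with the same evening minus daytime difference in each. It uses the same delay arrays as the comparison with short day. Here 31 genes passed (0.17% of all genes), 20 with a higher difference on the first day (0.11%) and 11 with a lower one (0.0605%), and 1511 had an unadjusted p under 0.05. Dbp was lower by 1.24 ± 0.22 (adjusted p = 0.00713), with evening minus daytime levels of 0.86 after 2 weeks and -0.37 on the first day, but by clock time, 4 h later by ZT for long days, it was at -0.05 (adjusted p = 0.967). Arntl was higher by 0.69 ± 0.14, with -0.87 after 2 weeks and -0.18 on the first day, and by clock time it was at 0.18 (adjusted p = 0.736). The clock genes of 10 of the 12 long-day arrays matched the short-day course 8 h earlier.

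Vegfd was lower by 1.42 ± 0.16 (adjusted p = 3.15e-06), with evening minus daytime levels of 0.01 after 2 weeks and -1.41 on the first day. Ddit4l, an inhibitor of mTOR signalling, was lower by 1.42 ± 0.15 (adjusted p = 1.2e-06). With long-day arrays taken by clock time, 4 genes passed (0.022% of all genes), 0.011% in each direction, Vegfd (-1.12) and Ddit4l (-1.13) among them. Per2 did not pass at -0.18 ± 0.13 (adjusted p = 0.730), with evening levels above daytime by 1.16 after 2 weeks and 0.98 on the first day, nor did Fkbp5 at 0.19 ± 0.13 or Tshb at -0.04 ± 0.35. Without the second long-day array of ZT16, 57 genes passed, and the count was 19 without the second delay array of ZT8, 9 and 18 without the first and second of ZT12, and 18 and 9 without those of ZT16.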

How the data were processed

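For 48 Affymetrix arrays the authors deposited log2 probe set values, for which the submitters' processing notes name RMA and R 2.8.0. These log2 values were used as deposited, and no array pair was identical. Of 45101 probe sets 34958 carried 1 gene symbol, 932 several and 9211 none, by GEO's platform annotation. Each of 18194 genes was read from its probe set of highest mean level (9012 had more than 1), with no filter. A mean for each of 24 groups of 2 arrays was fitted with limma 3.58.1 in R 4.3.3 (24 residual degrees of freedom, moderated variances with a trend, two-sided tests, Benjamini-Hochberg adjustment over all genes, threshold 0.05). The groups included those of another condition, long day advance, from mice 6 weeks old. Its arrays entered no comparison here but helped to set the variances. On simulated data with this design, 72 of 100 genes changed by 0.5 and 99 of 100 changed by 1 (log2) were recovered in the evening comparison, with 9 false calls among 18194 genes. The simulated noise was independent between genes and arrays, so deviations shared by many genes of an array were not simulated. In the data, leaving out 1 array gave counts from 139 to 2632, and these simulated rates need not hold there. The number of arrays, 2 per group, limits the precision.

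Named genes were 15 rises and 15 falls of greatest size whose sign was shared by ZT12 and ZT16, 5 of each sign for other comparisons, up to 4 per list and a fixed set of photoperiod and clock genes; members of the clock and glucocorticoid lists beyond these, and the marker genes named, were added after their values were seen. The comparison, the 13 pathway and 12 marker lists were chosen with earlier results of these data known. The alternatives were other daytime levels, probe sets, covariates, a dim-gene filter, replicate blocks, fits without single arrays, and 4 h earlier short-day arrays. Promoters came from RefSeq (GRCm38.p6).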

Additional observations from a re-analysis of the deposited data

Results flagged for a closer look

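Evening minus daytime differences that were not the same on the first long day as after 2 weeks of long days, by the test of that difference in limma, were seen for 31 genes, and the naming rule took the 5 of greatest size in each direction. The lower ones were Vegfd (-1.42), Ddit4l (-1.42), Dusp4, a phosphatase of MAP kinases (-1.41), Dbp (-1.24) and Aldh1a3, which makes retinoic acid (-0.94). Dusp4 (adjusted p = 0.0860) and Aldh1a3 (adjusted p = 0.0531) did not pass without the second long-day array of ZT16, and each lost the call without any of 6 delay arrays. The higher ones were Galnt12, a glycosyltransferase (0.97), Insm1, a factor of endocrine cells (0.93), Cldn7, a tight junction protein (0.85), Btg2, an inhibitor of proliferation (0.82), and Chrna9, an acetylcholine receptor subunit (0.70). Galnt12 and Insm1 lost the call without any of 3 delay arrays, Cldn7 and Chrna9 without any of 7, and the latter pair also with the probe set of largest variance (adjusted p = 0.0577 for both). With long-day arrays taken by clock time, 2 of these 10 passed, Vegfd and Ddit4l. Among the clock and glucocorticoid genes not chosen by that rule, Arntl (0.69), Fam107a (0.40), Nr1d1 (-0.71) and Nr1d2 (-0.60) passed as well.

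The change from ZT12 to ZT16 differed between delay and short day for Neurod1 (-3.14), Klhl41 (-1.87), Lonrf1 (-0.87), Timeless (1.60), Hspa1b (1.52) and Ahsa2 (0.76), as described above with the settings under which calls were lost. All 6 rest on 2 arrays per time and condition. No explanation of these differences was tested.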

How the results depend on the processing

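The count for the evening comparison (1112) was 75 with only short-day and delay arrays in the fit, 450 with the probe set of largest variance, 86 with the actin signal as a covariate, and 60, 1872 and 3386 with ZT8 alone, ZT0 and ZT4, or no daytime level. For ZT12 alone (194) it was 14 with only those arrays, 86 without a variance trend, 504 with a filter on dim genes and 33 with the probe set of largest variance. For ZT16 alone (143) it was 29, 56 with that probe set, 24 with actin and 87 with the Gapdh signal. For ZT16 against ZT12 (6) it was 11 with only those arrays and 10 with actin, and for chronic long days (31) it was 4 by clock time. Leaving out 1 array at a time gave 139 to 2632, 1 to 1327, 22 to 977 and 4 to 482 for these first 4 comparisons, 7120 to 8500 for the daytime offset, and 9 to 57 for chronic long days. The clock match was 100% throughout that and 60% with the clock genes that did not pass. Nothing in the labels ties equal replicate numbers, and the correlation of replicate deviations was over 0.1 in 19 of 45 pairs of groups (-0.19 to 0.49), so the numbers were not taken to pair the samples. Within delay it was over 0.1 in 7 of 10 pairs (median 0.22). A replicate block over all arrays, or within each condition, gave 1838 and 2389 genes for the evening comparison, 531 and 970 for ZT12, 292 and 486 for ZT16, and, within each condition, 14 for ZT16 against ZT12 and 53 for chronic long days.

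Of 64 single genes followed, 41 lost the call and 4 turned their sign against ZT8 alone: Cry1 0.091, Npas2 0.13, Tex11 -0.050 and Bhlhe40 -0.058. With no daytime level 22 lost the call and 12 turned: Scaf1 -0.57, Vegfd 0.13, Tafa3 0.36, Gbp3 0.069, Armc8 0.0046, Tshb 1.39, Rassf2 0.13, Fgf18 -0.0011, Ddit4l 0.38, Herpud1 -0.028, Xbp1 -0.056 and Scg5 -0.26. Against short day 4 h earlier 41 lost the call and 9 turned: Per2 -0.011, Zbtb16 -0.19, Vegfd 0.24, Fgd3 0.33, Arntl 0.22, Per3 -0.10, Neurod1 0.30, Klhl41 0.17 and Nr1d2 -0.078. No other alternative turned a sign, but 32 lost the call with actin as a covariate, 30 with only short-day and delay arrays, 16 with the probe set of largest variance, 12 with ZT0 and ZT4 as the daytime level, 8 without a variance trend and 5 with Gapdh. The cause of these changes was not tested, beyond fewer arrays in the smaller fits. Centring arrays on their medians, which moved no call among the 64, left the directions as they were.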

Other observations

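The genes that stood furthest apart by day, at hours lit in both conditions, included several that have not been described. Besides Prl and Tshb, Dusp4 was 8.72 to 9.78 on the 6 delay arrays of ZT0, ZT4 and ZT8 against 7.24 to 8.09 in short day (1.54 ± 0.18, adjusted p = 5.11e-08), and Tafa3, a secreted protein of the TAFA family, 6.89 to 8.20 against 6.01 to 6.51 (1.35 ± 0.16, adjusted p = 3.99e-08). Trhr, the receptor for thyrotropin-releasing hormone, was 8.67 to 8.98 against 7.94 to 8.51 (0.60 ± 0.08), and Vegfa, a vascular growth factor, 9.66 to 10.08 against 8.96 to 9.59 (0.57 ± 0.09). The ranges of these 4 genes did not overlap, but 45.6% of all genes passed by day. How many of all genes had ranges apart was not counted. Of 15 angiogenesis genes 8 were higher and 2 lower in delay by day, where 18.7% of all genes were higher and 26.9% lower.

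Lower by day in delay were Rap2b, a small GTPase, at 8.55 to 9.21 against 9.97 to 10.54 (-1.34 ± 0.11), and Dlgap2, a scaffold protein of synapses, at 5.41 to 5.77 and below all 6 short-day arrays (-1.27 ± 0.11). Other probe sets of Rap2b gave -0.29, -0.16 and 0.03 by day, at mean levels of 8.74, 7.42 and 4.48. The one used had a mean of 9.64. Of 12 secretory granule genes 8 were lower and 0 higher, beside those same shares of all genes, Scg5, a chaperone of prohormone convertase, among them at 11.18 to 11.40 against 11.66 to 12.18 (-0.58 ± 0.05). Each gene named here passed in the same direction against short day 4 h earlier. Age, set of mice and lighting history cannot be told apart in these daytime differences.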
